A study of Mus musculus with 6 samples.

Results

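The 41 genes described here encode the machinery that copies DNA and the proteins made in S phase. They were chosen by name, from the pathway, with earlier results of these data known. All 41 symbols were found among the 16022 in the deposited table. The sequenced RNA came from LSK cells of mouse bone marrow, which lack lineage markers and carry c-kit and much Sca-1, and which include hematopoietic stem cells as well as their first multipotent descendants. The 6 libraries came from 3 control samples, given the genotype WT, and 3 samples from HDAC6 knockout (KO) animals. HDAC6 is a mainly cytoplasmic deacetylase, and the series concerns its action on the metabolic enzyme IDH1 in these cells. The sources used here do not give the allele, the age of the mice or any pooling. They also do not state that each sample was a separate animal, so p-values measure only the spread between these samples, which may be technical.

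DNA replication begins when the origin recognition complex, CDC6 and CDT1 load the MCM2-7 helicase onto origins in G1. In S phase the helicase is activated by CDC45, the GINS complex and MCM10, and polymerases then copy DNA behind it while ribonucleotide reductase and thymidylate enzymes supply nucleotides and the CAF-1 complex packs new DNA into nucleosomes. Many of these genes are transcribed together under E2F factors as cells pass from G1 into S. Most long-term stem cells of the marrow are quiescent, whereas the progenitors within the LSK gate divide more often.

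As a set the replication genes stood slightly above WT in the knockout. Of the 41 genes, 37 had a positive log2 fold change and 4 a negative one, against 49.5% positive among all 12875 genes tested. The median log2 fold change was 0.20, a 1.15-fold difference, beside -0.0034 over all tested genes. By edgeR's quasi-likelihood test with Benjamini-Hochberg adjustment 0 of the 41 were called higher and 0 lower, beside 0% higher and 0.00777% lower over all tested genes. Of the 41 genes, 6 had an unadjusted p under 0.05 on the higher side (7.24% of all tested genes) and 0 on the lower side (6.15%). DESeq2 called 1 of the 41 higher, Chaf1a, and 0 lower, beside 0.897% higher and 0.456% lower over the genes it gave an adjusted p. All 41 passed the filter on low counts, the lowest WT mean being that of E2f1.

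In 10 of the 41 genes each knockout library lay above each WT library, beside 8.86% of all tested genes, and in 0 of 41 did each lie below, beside 9.7%. These 10 were Mcm4, Mcm7, Pcna, Dscc1, Rrm1, Rrm2, Tk1, Chaf1a, Wdr76 and Casp8ap2, and in Casp8ap2 the lowest knockout and the highest WT library were level at 103 CPM (counts scaled to the effective library size). On the deposited FPKM scale, to which no TMM factors were applied, the groups overlapped for Mcm4, Mcm7, Pcna, Dscc1, Wdr76 and Casp8ap2. The count also depended on the scaling of CPM. With library size alone in place of TMM factors it was 5 of 41, beside 5.95% of all tested genes on the higher side, and with upper-quartile factors 4 of 41, beside 6.48%. Those scalings also moved the background: 47.7% of all genes with non-overlapping groups were on the higher side with TMM, 31.4% with library size alone and 34.7% with upper-quartile factors.

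The 3 knockout libraries were not alike. Knockout replicate 1 lay above the range of the WT libraries in 35 of the 41 genes and knockout replicate 2 in 33. Knockout replicate 3 lay above that range in 10, within it in 26 and below it in 5. The same order of knockout libraries, replicate 1 above replicate 2 above replicate 3, was found in 35 of the 41 genes. Averaged over the 41 genes, log2 CPM exceeded the WT mean by 0.36 in knockout replicate 1, 0.25 in replicate 2 and 0.019 in replicate 3, while the WT libraries stood at -0.040, -0.039 and 0.079, so WT replicate 3 lay above knockout replicate 3. The median log2 fold change of the 41 genes was 0.12 without knockout replicate 1, and it was 0.29 without knockout replicate 3. With library size alone as scaling it was 0.12, when the median of all tested genes was -0.078. The dot plot of the 41 genes by library shows both features, the small size of most differences and the place of knockout replicate 3 among the WT libraries.

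**Figure D1:**
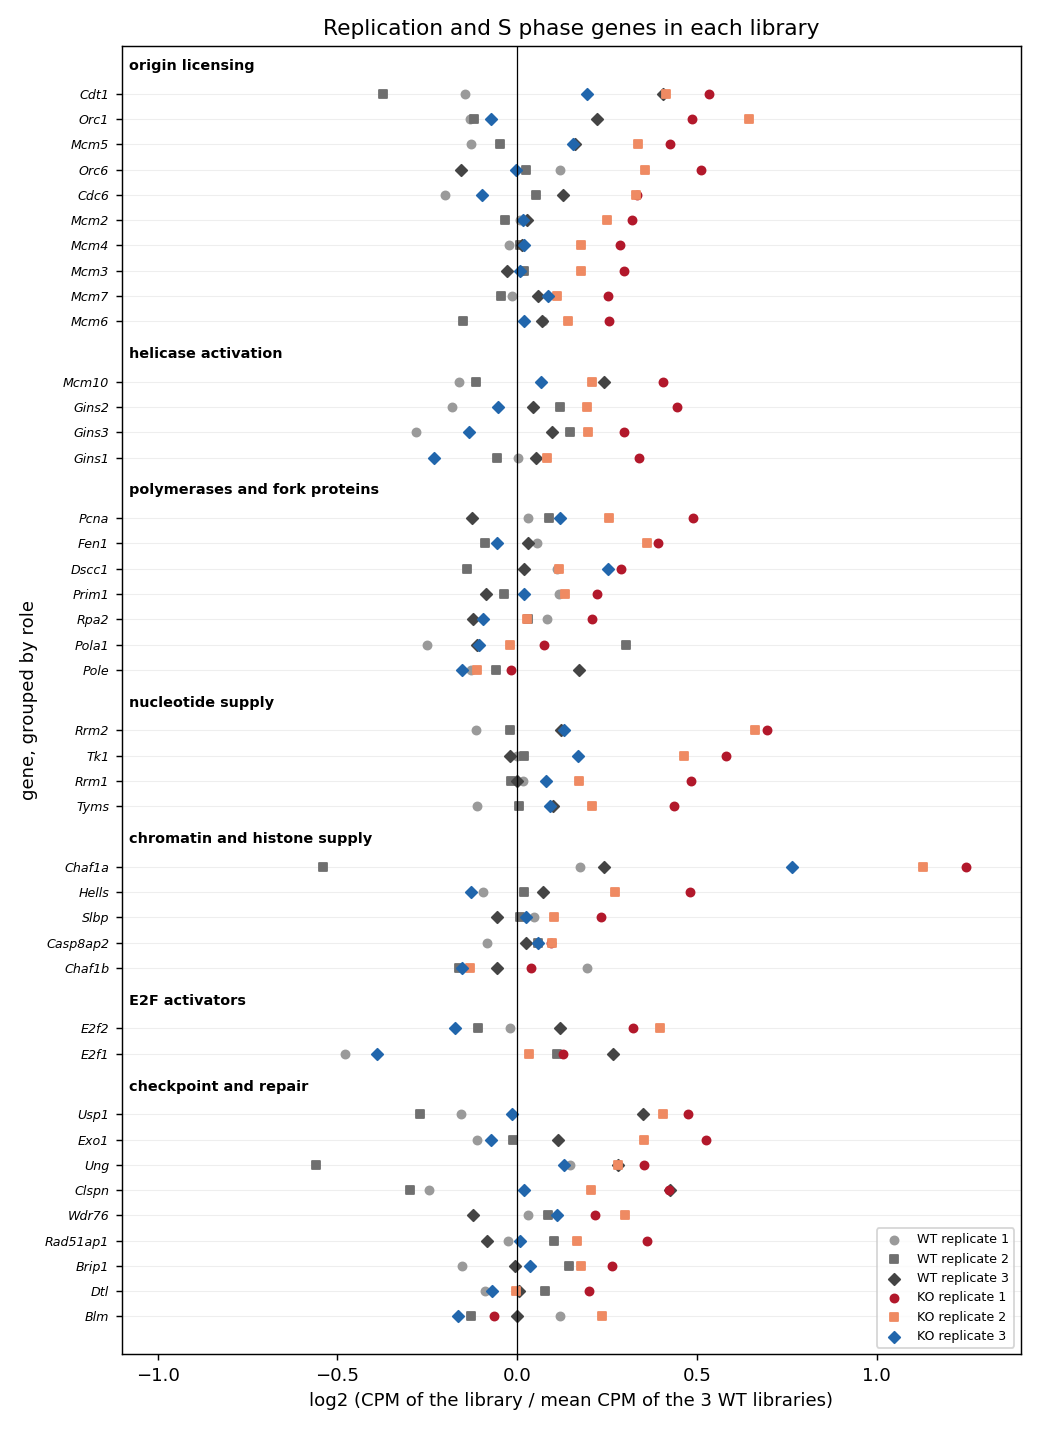
Each row is 1 of the 41 genes, grouped by role, and each point 1 library; the horizontal axis is the log2 ratio of that library's CPM to the mean of the 3 WT libraries. Knockout replicates 1 and 2 lie to the right of the WT points in most rows, knockout replicate 3 lies within the WT range in 26 of 41 rows, and Chaf1a has the widest gap.

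The libraries held 25993971 to 28743672 counts each. Hdac6 itself fell in the knockout, with 68.0, 58.2 and 54.3 CPM in the WT and 9.62, 7.69 and 11.3 CPM in the knockout libraries (log2 fold change -2.66, SE 0.19, edgeR adjusted p = 0.000594), so each library matched its label, knockout replicate 3 included. Transcripts of the 2 sort markers were present in each library, and Cd3g, Cd3d and Cd3e, which encode the T cell receptor's CD3 chains, did not exceed 0.47 CPM. Over all genes, the pair of libraries with the smallest difference relative to sampling noise was WT replicate 3 with knockout replicate 3 (chi-square per degree of freedom 25.8, against 34.4 to 91.4 for the other pairs), and since each pair differed by far more than sampling noise, each library was kept as 1 sample. In these bulk samples, fewer cells of a type and less RNA per cell cannot be told apart.

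Markers of the sort and of other cell types also differed between the groups, and 0 of the genes on these lists passed by edgeR. Kit, which encodes c-kit, measured 1323, 1367 and 1127 CPM for WT and 725, 817 and 1082 CPM in the knockout (log2 fold change -0.54, DESeq2 adjusted p = 0.0471). Ly6a, which encodes Sca-1, measured 60.3, 68.7 and 66.2 CPM for WT and 82.1, 119 and 119 CPM in the knockout (log2 fold change 0.71, DESeq2 adjusted p = 0.00718). The groups did not overlap for either gene, with Kit lower and Ly6a higher in the knockout. The 13 LSK and stem cell markers, these 2 included, summed to 3670 and 3507 CPM in knockout replicates 1 and 2, and to 4702 CPM in knockout replicate 3, which lay within the WT range of 4566 to 5173 CPM. Of the 13 genes 10 were below WT and 3 above.

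Neutrophil markers were at low levels, summing to 37.7 to 104 CPM for WT against 12.1 to 28.8 CPM in the knockout. Of these 7 genes 6 were below WT (median of the list -1.39 on the log2 scale), and DESeq2 called 3 lower, the granule protein gene Ltf (adjusted p = 3.6e-05), Ngp (0.00124) and S100a8 (0.0231). Of the 10 T and natural killer cell markers 7 were tested, 5 of them above WT, and DESeq2 called 3 higher. These were Il2rb, a cytokine receptor chain (2.87, 5.76 and 5.15 CPM for WT and 8.78, 23.6 and 33.3 CPM in the knockout, DESeq2 adjusted p = 8.7e-05), the natural killer cell receptor gene Ncr1 (adjusted p = 0.0423) and the granzyme gene Gzma (adjusted p = 0.0356). Prf1, which encodes perforin, did not pass, with 0, 0 and 0.53 CPM for WT and 1.80, 4.46 and 1.02 CPM in the knockout. Among the knockout libraries Il2rb, Ncr1 and Gzma were lowest in replicate 1, whereas Prf1 was lowest in replicate 3. Lck, also on this list, went the other way, with non-overlapping groups. It measured 76.7, 63.5 and 58.4 CPM for WT and 47.5, 43.9 and 57.4 CPM in the knockout, lowest in replicate 2. Its log2 fold change was -0.42, and DESeq2 did not call it (adjusted p = 0.215). The sum of this list (344 to 382 CPM for WT, 319 to 408 CPM in the knockout) consisted mostly of Nkg7, at 256 to 312 CPM. Myeloid progenitor markers were above WT in 7 of 7 genes, 0 of them called by DESeq2, and summed to 17322 CPM in knockout replicate 2 and to 4967 to 7712 CPM in the other libraries. The summed B cell markers (54.96 to 80.02 CPM for WT, 64.8 to 87.9 CPM in the knockout) and erythroid markers (1059 to 1611 and 889 to 1334 CPM) overlapped between the groups, and of both lists DESeq2 called only the carbonic anhydrase gene Car1 (higher, adjusted p = 0.047). The part of these cell markers in the replication gene values was not tested.

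**Figure D2:**
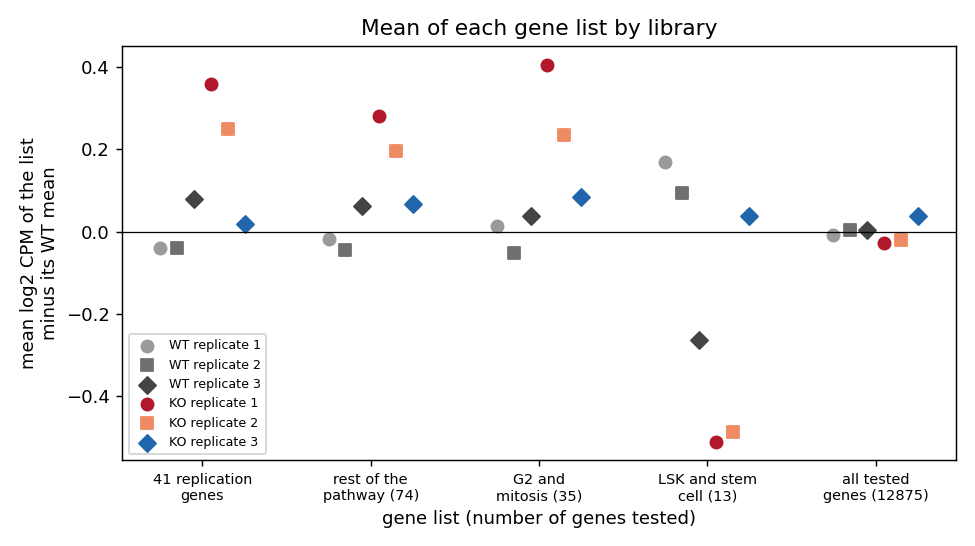
Points are libraries; the vertical axis is the mean over a gene list of log2 CPM minus each gene's WT mean. For the replication genes, the rest of the pathway and the G2 and mitosis genes, knockout replicates 1 and 2 lie above the WT libraries and knockout replicate 3 close to them, and for the LSK and stem cell markers knockout replicates 1 and 2 lie below.

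The choice of the genes did not use their promoter sequence. E2F factors bind words of the kind TTGGCGC, with variants that here were TTCCCGC as one form, TTGCCGC as another and TTCGCGC as the last, and these 4 words were searched on both strands from 250 bases before to 50 bases after each start, in RefSeq promoters of GRCm38.p6. Of the 41 genes 34 had a promoter in that table, and 24 of the 34 (70.6%) held at least 1 of the words, beside 48.3% of the further replication genes described below, 19.2% of tested genes and 10.9% of all genes with a promoter. The words were chosen after the values had been seen. A longer form with 1 more T at the front (TTTGGCGC, TTTCCCGC, TTTGCCGC and TTTCGCGC), each of which holds a shorter word, was present in 14 of 34 (41.2%), beside 4.69% of tested genes. Among 31 promoters of G2 and mitosis genes the shorter words were found in 6 (19.4%), whereas the word TTTGAA, the core of the CHR element of mitotic genes, was found in 23 of 31 (74.2%) and in 5 of 34 (14.7%) replication genes, beside 14.9% of tested genes. CCAAT, the word of NF-Y, was found in 24 of 34 replication and 24 of 31 mitotic genes, beside 43.6% of tested genes. These shares describe the letters only, and promoters of different genes also differ in base composition.

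**Figure D3:**
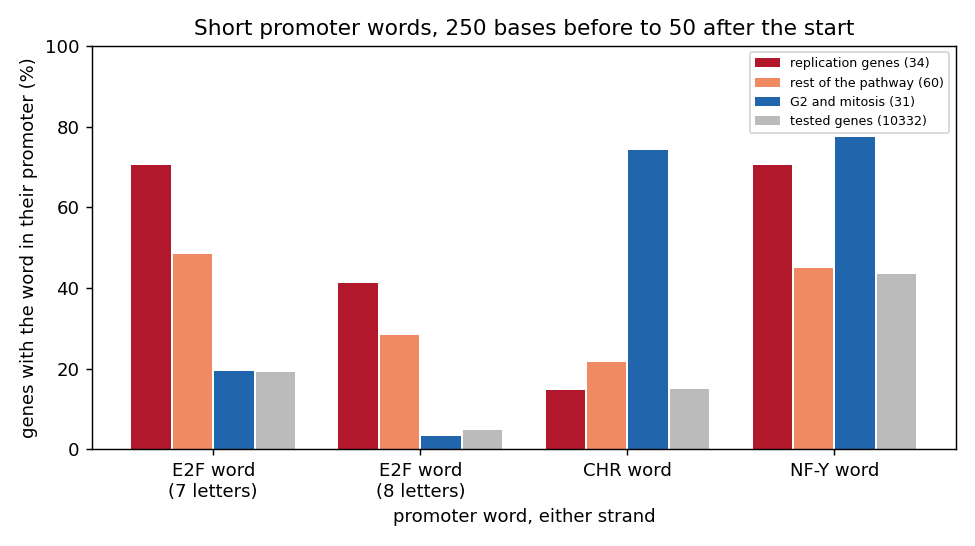
Bars give the percentage of genes in each list whose promoter holds the word on either strand, with the number of genes with a promoter in the legend. The E2F words are most frequent in the replication genes (70.6% for the shorter form) and the CHR word in the G2 and mitosis genes (74.2%), and the NF-Y word is frequent in both.

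The promoters below are those of the CAF-1 subunit genes Chaf1a, which differed most, and Chaf1b, which did not pass, of the ribonucleotide reductase subunit gene Rrm1, of the helicase genes Mcm5 and Mcm6, and of Hells. Each is printed 5′ to 3′ on the strand of the gene, with the shorter E2F words in capitals, on either strand. They lie at chr17:56040166-56040465 on the plus strand (Chaf1a), chr16:93883651-93883950 on the plus strand (Chaf1b), chr7:102441445-102441744 on the plus strand (Rrm1), chr8:75109259-75109558 on the plus strand (Mcm5), chr1:128359656-128359955 on the minus strand (Mcm6) and chr19:38930740-38931039 on the plus strand (Hells) of GRCm38.p6.
Chaf1a: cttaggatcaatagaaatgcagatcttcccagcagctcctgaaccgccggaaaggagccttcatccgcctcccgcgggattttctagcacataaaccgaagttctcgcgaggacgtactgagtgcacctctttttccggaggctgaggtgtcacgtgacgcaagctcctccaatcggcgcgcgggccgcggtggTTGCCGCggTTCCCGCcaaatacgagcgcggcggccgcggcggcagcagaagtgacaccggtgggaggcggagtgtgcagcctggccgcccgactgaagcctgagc
Chaf1b: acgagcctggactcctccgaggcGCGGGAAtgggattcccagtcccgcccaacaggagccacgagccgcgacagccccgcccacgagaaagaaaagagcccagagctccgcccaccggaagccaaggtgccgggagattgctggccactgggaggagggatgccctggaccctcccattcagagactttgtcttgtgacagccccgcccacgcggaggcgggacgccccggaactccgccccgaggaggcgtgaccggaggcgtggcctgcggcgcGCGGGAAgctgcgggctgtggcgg
Rrm1: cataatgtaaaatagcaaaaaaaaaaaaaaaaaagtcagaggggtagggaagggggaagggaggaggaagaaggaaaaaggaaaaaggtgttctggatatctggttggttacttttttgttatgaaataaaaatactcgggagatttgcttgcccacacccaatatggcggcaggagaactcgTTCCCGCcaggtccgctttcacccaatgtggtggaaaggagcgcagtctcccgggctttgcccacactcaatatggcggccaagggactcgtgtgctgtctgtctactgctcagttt
Mcm5: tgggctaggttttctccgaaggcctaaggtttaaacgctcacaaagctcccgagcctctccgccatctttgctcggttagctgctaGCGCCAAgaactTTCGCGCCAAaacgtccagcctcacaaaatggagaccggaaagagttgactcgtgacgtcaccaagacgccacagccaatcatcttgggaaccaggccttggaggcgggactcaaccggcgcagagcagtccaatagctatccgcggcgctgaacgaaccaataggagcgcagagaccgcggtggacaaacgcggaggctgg
Mcm6: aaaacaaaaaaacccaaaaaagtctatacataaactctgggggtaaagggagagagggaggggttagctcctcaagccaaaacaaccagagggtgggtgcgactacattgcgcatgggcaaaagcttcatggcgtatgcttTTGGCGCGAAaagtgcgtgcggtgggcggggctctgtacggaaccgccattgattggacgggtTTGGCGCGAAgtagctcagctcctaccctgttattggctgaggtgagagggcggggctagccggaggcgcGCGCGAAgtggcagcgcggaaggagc
Hells: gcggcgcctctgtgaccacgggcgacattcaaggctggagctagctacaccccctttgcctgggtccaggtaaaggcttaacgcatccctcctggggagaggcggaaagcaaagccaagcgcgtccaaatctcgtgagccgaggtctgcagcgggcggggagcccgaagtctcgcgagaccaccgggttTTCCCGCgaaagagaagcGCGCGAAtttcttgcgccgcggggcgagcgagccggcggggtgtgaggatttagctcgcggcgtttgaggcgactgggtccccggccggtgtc

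The Chaf1a and Chaf1b promoters each held 2 of the words, with log2 fold changes of 1.06 for Chaf1a and -0.079 for Chaf1b. In Chaf1a they lie close together just upstream of the start, and in Chaf1b 1 is far upstream and 1 just downstream of the start. Mcm6 held 5 matches, some of them overlapping, and Mcm5 3, while Rrm1 held 1 and Hells 2. The promoters printed were thus all among the 24 with a word, and none of the 10 without one was printed. The 24 replication genes with a word had a median log2 fold change of 0.18, from -0.079 to 1.06, and the 10 without one, among them Tk1, Pcna and Tyms, a median of 0.24, from -0.060 to 0.41.

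Chaf1a had the largest difference of the 41 genes. It encodes the large subunit of CAF-1, the chaperone that deposits new histones H3 and H4 behind the fork. The WT libraries held 62.3, 38.0 and 65.3 CPM and the knockout libraries 131, 121 and 93.8 CPM. Each knockout library was therefore above each WT library, knockout replicate 3 included, although WT replicate 2 was also well below the other WT libraries. The mean and SD of 3 libraries were 55.2 ± 14.98 CPM for WT and 115 ± 19.3 CPM for the knockout, and the log2 fold change was 1.06 (SE 0.21). It did not pass by edgeR (adjusted p = 0.298) and passed by DESeq2 (adjusted p = 0.000413), and over the other fits its adjusted p ran from 0.0537 without knockout replicate 3 to 0.744 without knockout replicate 2. The log2 fold change was 0.85 without WT replicate 2, the lowest value in the alternatives.

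Chaf1b encodes the middle subunit of CAF-1. Its levels were 197, 153 and 165 CPM for WT and 177, 157 and 154 CPM in the knockout, with overlapping groups and a log2 fold change of -0.079 (SE 0.12, edgeR adjusted p = 0.79). On the deposited FPKM scale, which allows for gene length, the Chaf1a to Chaf1b ratio was 0.174, 0.135 and 0.218 in WT and 0.408, 0.423 and 0.333 in the knockout. In all 6 libraries Chaf1a mRNA was thus below Chaf1b mRNA, and the ratio was 0.176 ± 0.041 in WT against 0.388 ± 0.048 in the knockout (SD, n = 3 each), with no overlap between the groups. This ratio was chosen after the values had been seen and was not tested. The other chromatin genes had smaller log2 fold changes than Chaf1a. Hells, a remodelling helicase needed for DNA methylation, measured 125, 135 and 140 CPM for WT and 186, 161 and 122 CPM in the knockout, so that its highest and lowest values both came from knockout libraries (log2 fold change 0.23, SE 0.15). Slbp, which binds the stem-loop of histone mRNAs, had a log2 fold change of 0.12, and Casp8ap2, which acts in histone mRNA processing, one of 0.083. Over the 5 chromatin and histone supply genes the median was 0.12 and 0 passed by edgeR.

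**Figure D4:**
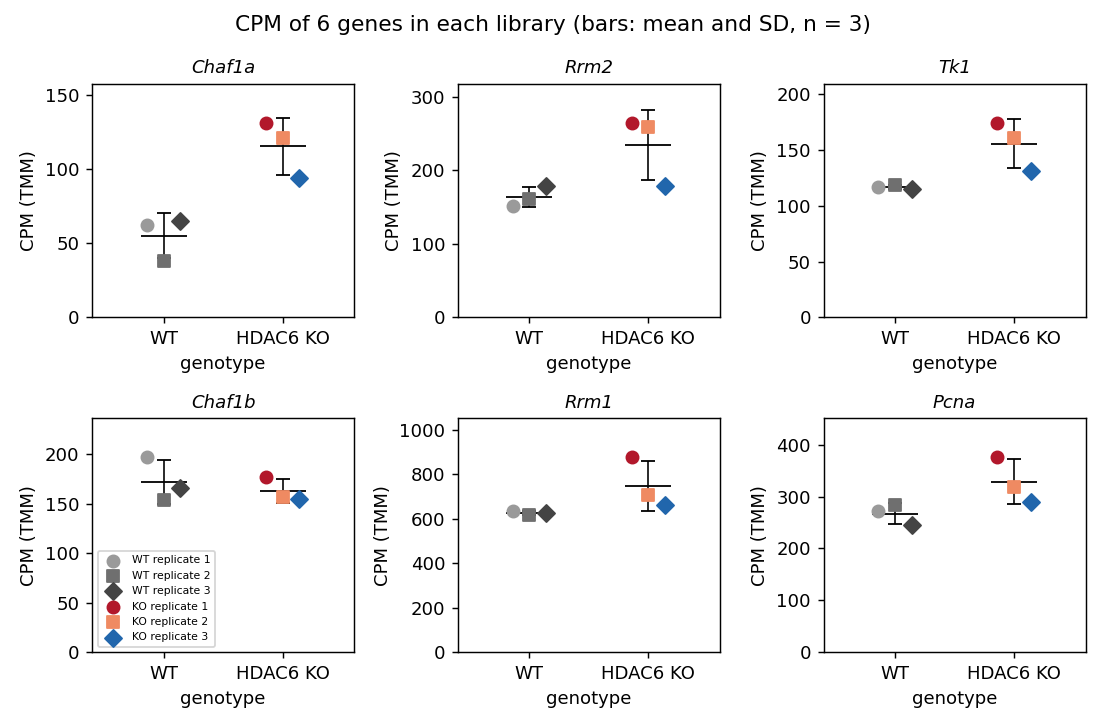
CPM with TMM factors of 6 genes, by genotype; points are libraries, bars the mean and SD of 3 libraries, and the vertical axes start at 0. The groups do not overlap for Chaf1a, Rrm2, Tk1, Rrm1 and Pcna, and do for Chaf1b; in the former 5, knockout replicate 3 is the lowest of the knockout libraries.

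Among the groups by role, the 4 genes of nucleotide supply had the largest median, 0.34. In 3 of the 4 each knockout library lay above each WT library, beside 8.86% of all tested genes. The 11 further nucleotide supply genes, part of the list of 74 described below, had a median of 0.16, with 7 above WT and 4 below. Ribonucleotide reductase makes deoxyribonucleotides from a large subunit, encoded by Rrm1, and a small subunit encoded by Rrm2, which is normally made in S phase and degraded afterwards. Rrm2 stood at 151, 161 and 178 CPM for WT and 265, 259 and 179 CPM in the knockout. The highest WT and the lowest knockout library were thus almost level, and the log2 fold change of 0.52 (SE 0.15, edgeR adjusted p = 0.298) rested on knockout replicates 1 and 2. Without knockout replicate 3 it was 0.68 and passed by edgeR (adjusted p = 0.0453), the only one of the 41 genes that did. Rrm1 stood at 633, 618 and 625 CPM for WT and 875, 704 and 661 CPM in the knockout (log2 fold change 0.26, SE 0.11, edgeR adjusted p = 0.371). The WT libraries lay close together, so the spread of the comparison came from the knockout libraries (SD 7.53 CPM for WT and 113 CPM in the knockout).

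Tk1, the thymidine kinase of dividing cells, showed the same tight WT values, 117, 118 and 115 CPM, and 175, 161 and 131 CPM in the knockout. Its log2 fold change was 0.41 (SE 0.12, edgeR adjusted p = 0.298), and each knockout library exceeded each WT library by more than the spread of the WT libraries. For Tyms, thymidylate synthase, the log2 fold change was 0.25 (SE 0.12), with knockout replicate 3 at 193 CPM just under the highest WT library at 194 CPM.

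All 10 origin licensing genes had a knockout mean over that of WT. Their median log2 fold change was 0.20, with 0 past the edgeR threshold. Without knockout replicate 3 this median was 0.31. Cdt1, which loads the helicase, had the largest log2 fold change of the group, 0.39 (SE 0.19), with 97.8, 83.6 and 143 CPM for WT and 157, 144 and 124 CPM in the knockout. The groups overlapped, since WT replicate 3 lay above knockout replicate 3. Mcm5 had the smallest p of the group, with 526, 557 and 643 CPM for WT and 772, 727 and 641 CPM in the knockout (log2 fold change 0.31, SE 0.11, edgeR adjusted p = 0.313). Orc1, the ATPase subunit of the origin recognition complex, went from 24.4 ± 3.54 to 31.9 ± 7.77 CPM, Orc6 from 65.3 ± 6.23 to 80.6 ± 14.2 CPM, and Cdc6, the loading ATPase, from 136 ± 15.8 to 157 ± 25.6 CPM (SD, n = 3 each). All 3 had overlapping groups, with knockout replicate 3 within the WT range.

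The 6 subunits of the MCM2-7 helicase are loaded as a hexamer with 1 copy of each, and their mRNAs made up similar shares of their sum in WT and knockout. On the deposited FPKM scale the order was Mcm6, Mcm7, Mcm3, then Mcm2 and Mcm5, then Mcm4, in the group means of WT. Mcm2 and Mcm5 did not differ beyond their spread there, at 190 ± 2.25 and 183 ± 17.5 FPKM, while Mcm6 at 520 ± 41.4 FPKM was well above Mcm4 at 127 ± 1.85 FPKM (SD, n = 3 each). Mcm6 gave 548, 472 and 538 FPKM in WT and 577, 538 and 520 FPKM in the knockout, so its groups overlapped. Mcm7 gave 321, 316 and 332 FPKM in WT and 358, 328 and 338 FPKM in the knockout. Mcm3 gave 287, 293 and 276 FPKM in WT and 325, 302 and 282 FPKM in the knockout. In both genes knockout replicate 1 stood out above the rest, and on this scale both had overlapping groups. Mcm2 gave 192, 188 and 192 FPKM in WT and 221, 212 and 190 FPKM in the knockout. Mcm5 gave 168, 179 and 202 FPKM in WT and 228, 217 and 201 FPKM in the knockout. Mcm4 gave 125, 129 and 127 FPKM in WT and 144, 134 and 127 FPKM in the knockout. For these 3 subunits knockout replicate 3 lay within the WT range on this scale. In CPM the groups of Mcm4 did not overlap, though knockout replicate 3 at 423 CPM was almost level with WT replicate 3 at 421 CPM. Of the summed FPKM of the 6 subunits, Mcm6 made up 31.9% ± 1.78 in WT and 31.2% ± 0.155 in the knockout, and Mcm4 7.80% ± 0.324 and 7.73% ± 0.0593 (SD, n = 3 each). Mcm5 made up 11.2% ± 0.958 in WT and 12.3% ± 0.194 in the knockout. Its share was the only one with non-overlapping groups, though WT replicate 3 at 12.127% and knockout replicate 3 at 12.137% were almost level. The subunits thus differed in level by more than the genotypes did, with log2 fold changes of 0.14 for Mcm6, 0.15 for Mcm7, 0.16 for Mcm3, 0.17 for Mcm4, 0.20 for Mcm2 and 0.31 for Mcm5.

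**Figure D5:**
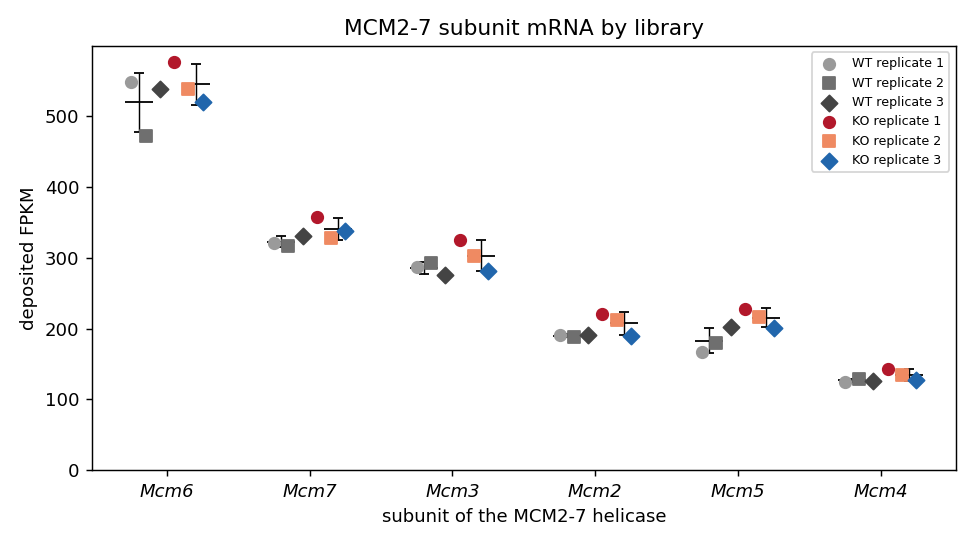
Deposited FPKM of the 6 helicase subunits in each library; points are libraries, bars the mean and SD of 3 libraries, and the vertical axis starts at 0. The subunits are ordered by their WT mean, from Mcm6 at 520 FPKM to Mcm4 at 127 FPKM, and knockout replicate 1 is the highest library for each.

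The 4 genes of helicase activation had a median of 0.17, and in 0 of 4 were the groups apart. Mcm10, which joins the activated helicase at the fork, measured 90.2, 93.2 and 119 CPM for WT and 134, 116 and 106 CPM in the knockout (log2 fold change 0.23, SE 0.14). Gins2 measured 46.1, 56.9 and 54.0 CPM for WT and 71.2, 59.9 and 50.4 CPM in the knockout (log2 fold change 0.21, SE 0.16). In both genes knockout replicate 3 fell among the WT values. Gins1 and Gins3, which encode further subunits of GINS, had log2 fold changes of 0.082 (SE 0.17) and 0.13 (SE 0.17), and the sign for Gins1 turned with log2(FPKM + 1) values.

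Polymerase and fork genes differed among themselves. Pcna, the sliding clamp that holds polymerases on DNA, measured 273, 284 and 245 CPM for WT and 376, 319 and 290 CPM in the knockout. Its groups did not overlap in CPM, and the log2 fold change was 0.30 (SE 0.12, edgeR adjusted p = 0.34). On the deposited FPKM scale they overlapped, with knockout replicate 3 at 281 FPKM and WT replicate 2 at 284 FPKM. Fen1, the nuclease that trims Okazaki fragments, measured 317, 287 and 312 CPM for WT and 401, 392 and 294 CPM in the knockout, with knockout replicate 3 inside the WT range (log2 fold change 0.25, SE 0.13). The catalytic subunits of polymerases alpha and epsilon had log2 fold changes slightly below 0, each smaller in size than its SE. Pola1, the catalytic subunit of polymerase alpha, had a log2 fold change of -0.014 (SE 0.15), and Pole, that of polymerase epsilon, one of -0.093 (SE 0.11). Prim1, the primase, stood at 0.13 (SE 0.11), Dscc1, part of a clamp loader, at 0.22 (SE 0.15), and Rpa2, a subunit of the protein that coats single-stranded DNA, at 0.052 (SE 0.11). The sign for Rpa2 turned with library size alone and with upper-quartile factors, and that for Pola1 with no filter on low counts. Over the 7 genes the median was 0.13 and 0 passed by edgeR.

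The E2F activator genes themselves were at low levels and showed no common direction. E2f1 measured 8.29, 12.5 and 13.9 CPM for WT and 12.6, 11.8 and 8.81 CPM in the knockout. E2f2 measured 12.1, 11.4 and 13.3 CPM for WT and 15.3, 16.2 and 10.9 CPM in the knockout. The groups overlapped for both, and the log2 fold changes were -0.060 (SE 0.26) for E2f1 and 0.20 (SE 0.22) for E2f2. The sign for E2f1 turned with limma-voom and without WT replicate 2, WT replicate 3 or knockout replicate 3.

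All 9 genes of the checkpoint and repair group were above WT in the mean, with a median of 0.21, and 0 passed by edgeR. Exo1, a nuclease of mismatch repair and resection, measured 99.1, 106 and 116 CPM for WT and 154, 137 and 102 CPM in the knockout (log2 fold change 0.29, SE 0.15). Usp1, which removes ubiquitin from PCNA, measured 42.5, 39.3 and 60.4 CPM for WT and 65.9, 62.8 and 46.9 CPM in the knockout (log2 fold change 0.30, SE 0.19). For both, knockout replicate 3 lay within the WT range. Ung, the uracil glycosylase, had a log2 fold change of 0.26, Clspn, the claspin adaptor of the checkpoint kinase, 0.23, Wdr76 0.21, and the helicase gene Brip1 0.16. Over the 9 genes the log2 fold changes ran from 0.012 to 0.30. Dtl, which directs CDT1 to degradation, stood at 0.046 (SE 0.11) and the helicase gene Blm at 0.012 (SE 0.14). The signs for Dtl and Blm turned with library size alone, with upper-quartile factors and with log2(FPKM + 1) values.

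A list of 74 further replication genes was read the same way. Of these, 61 had positive and 13 negative log2 fold changes (median 0.16), and 18 were above WT with non-overlapping groups and 1, the clamp loader gene Rfc2, below, beside 8.86% and 9.7% of all tested genes. By edgeR 0 were higher and 0 lower. An unadjusted p under 0.05 was found for 17 higher and 0 lower genes, beside 7.24% and 6.15%, and DESeq2 called 0 as well. The 4 with the smallest p were E2f8, Asf1a, Tfdp1 and Dut. Asf1a, which encodes a histone chaperone that hands H3 and H4 to CAF-1, measured 44.4, 27.6 and 44.6 CPM for WT and 69.1, 67.4 and 52.4 CPM in the knockout (log2 fold change 0.70, SE 0.20, edgeR adjusted p = 0.298). E2f8, an E2F repressor, measured 69.1, 63.7 and 71.3 CPM for WT and 93.4, 99.0 and 83.1 CPM in the knockout (log2 fold change 0.43, SE 0.12). Tfdp1, the DNA-binding partner of E2F proteins, had a log2 fold change of 0.50 (SE 0.15), and Dut, which removes dUTP, one of 0.40 (SE 0.13). In all 4 the groups did not overlap. Among those below WT were Mcm9 (log2 fold change -0.43), a helicase related to MCM2-7 that acts in repair, Orc5 (-0.23) and the mitochondrial thymidine kinase gene Tk2 (-0.21), which were chosen after their values had been seen.

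G2 and mitosis genes, which follow S phase in the cycle, were set beside the replication genes. Of 35 such genes 34 had positive log2 fold changes (median 0.25), and 15 lay above WT with non-overlapping groups, beside 8.86% of all tested genes. By edgeR 0 of 35 passed (14 higher at an unadjusted p under 0.05, beside 7.24%), and by DESeq2 1, Plk1 (adjusted p = 0.0235). Plk1, a mitotic kinase, measured 97.0, 103 and 110 CPM for WT and 178, 162 and 125 CPM in the knockout, and Bub1, a spindle checkpoint kinase, 83.8, 70.2 and 72.8 CPM for WT and 128, 105 and 93.7 CPM in the knockout. The mean of this list exceeded the WT mean by 0.41 in knockout replicate 1, 0.24 in replicate 2 and 0.084 in replicate 3, so the order of the knockout libraries was that of the replication genes. In this list knockout replicate 3 lay above the highest WT library, at 0.039. Whether the replication and the G2 and mitosis genes differed in their response was not tested.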

How the data were processed

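RNA sequencing measured 3 WT and 3 HDAC6 knockout LSK samples. Tools named in the submitters' processing notes, without roles, are DESeq2, featureCounts 2.0.3, SAMtools 1.13 and HISAT2 2.2.1, with GRCm39 as build. Annotation, strandedness and the handling of shared reads: not given in the sources used here. For each gene symbol the authors deposited an estimated count and an FPKM per library, as the file headers name them. In each library 19.6% to 20.9% of these estimated counts had a decimal part, and they were rounded before testing. FPKM was used to compare levels between genes, for ratios and shares, to see whether groups overlapped on that scale, and for 1 alternative.

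The genotypes were contrasted with edgeR 4.0.16 under R 4.3.3, using its quasi-likelihood test (robust, filterByExpr with a minimum count of 10, TMM factors of 0.952 to 1.034), with Benjamini-Hochberg adjustment over 12875 genes and a threshold of 0.05. The SE of a log2 fold change is its size over the square root of F. Levels are TMM CPM, and a gene without counts could still have reached 0.106 to 0.114 CPM (3 counts), by counting error only. List means per library used log2 CPM with a prior count of 2. Full per-library values are given for the 2 genes with the smallest p in each role group, those with non-overlapping groups and an unadjusted p under 0.05, and MCM2-7. The members, lists and tests were chosen with earlier results of these data known, and the promoter words and FPKM ratios after the values were seen.

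Alternatives were RLE and upper-quartile factors, library size alone, DESeq2 1.42.0, leaving the filter out or asking for 5 CPM in 3 libraries, limma 3.58.1 (voom with sample weights, and log2(FPKM + 1)), non-robust dispersion, the newer quasi-likelihood method, the replicate number as a block, and each library left out. The edgeR and DESeq2 fits were run on simulated data with changes larger than most differences described here, so that run does not cover differences of this size. Promoters came from RefSeq (GRCm38.p6), which differs from the build named for the counts, so they served for sequence only.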

Additional observations from a re-analysis of the deposited data

How the results depend on the processing

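Over 17 alternative settings, the log2 fold changes of the 48 named genes kept their direction and side of the threshold in 787 of 816 values. DESeq2 called 120 genes higher and 61 lower, with 1 replication gene (Chaf1a, log2 fold change 1.07) and 1 G2 and mitosis gene (Plk1) higher. Leaving out single libraries gave 0 to 30 genes higher and 1 to 14 lower, and 0 to 1 replication genes and 0 to 1 G2 and mitosis genes higher. The calls of Rrm2 (0.68, adjusted p = 0.0453) and Plk1 (0.72, adjusted p = 0.0472) by edgeR came without knockout replicate 3, which left that arm with 2 libraries. Without knockout replicate 1 edgeR called 1 gene higher and 3 lower, 0 of them replication genes. Signs changed for 8 of the replication genes, whose log2 fold changes lay between -0.093 and 0.082. With upper-quartile factors Rpa2 stood at -0.00077, Dtl at -0.0071 and Blm at -0.040, and with library size alone at -0.025, -0.031 and -0.064. With log2(FPKM + 1) they stood at -0.021, -0.030 and -0.065, and Gins1 at -0.011. Pola1 stood at 0.0022 with no filter and E2f1 at 0.0012 with limma-voom. The median of the 2 E2F activator genes was -0.0069 with library size alone and -0.0035 with log2(FPKM + 1), and ran from -0.027 to 0.22 over the libraries left out. Over those, Chaf1b ran from -0.15 to 0.030, Pola1 from -0.12 to 0.17, Pole from -0.15 to 0.0076, E2f1 from -0.25 to 0.10, Gins1 from -0.065 to 0.22, Rpa2 from -0.031 to 0.12, Dtl from -0.036 to 0.10 and Blm from -0.11 to 0.094. The cause of these changes was not tested. The median of the replication genes ran from 0.12 to 0.29 over the libraries left out.

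With the replicate number as a block edgeR called 0 genes higher and 1 lower, as without it, the median of the replication genes was 0.20 and 4 of them had an unadjusted p under 0.05. Pola1 turned to 0.0031 with the block, and no call changed. Same-numbered libraries did not deviate together (correlations of 0.033, -0.039 and -0.12 over genes), so the numbers were not taken as pairs.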

Other observations

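Geminin, encoded by Gmnn, binds CDT1 and keeps origins from being loaded more than once in a cycle. On the deposited FPKM scale the Cdt1 to Gmnn ratio was 0.567, 0.456 and 0.883 in WT and 0.636, 0.664 and 0.613 in the knockout. The knockout libraries all lay inside the WT range, and the WT libraries spread far more (SD 0.222 in WT and 0.0256 in the knockout, n = 3 each). The 41 replication genes together took 0.896% to 0.934% of all counts in the WT libraries, and 1.07%, 0.987% and 0.923% in knockout replicates 1, 2 and 3. The ratio and the shares were chosen after the values had been seen and were not tested.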
